A study of Homo sapiens with 6 samples.

Results

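This report describes the mRNAs of 10 genes of polyamine metabolism, ODC1, AMD1, SRM, SMS, OAZ1, OAZ2, AZIN1, SAT1, SMOX and PAOX, out of 60651 gene identifiers counted in SK-N-AS neuroblastoma cells. They were chosen by name for their place in the pathway, with ODC1 as the leading gene, and all 10 passed the filter on low counts that left 29086 genes to test. The established human line SK-N-AS derives from a neuroblastoma and lacks MYCN amplification, and the cells carried a stably transfected MYCN gene under a tetracycline-controlled promoter together with the tetracycline repressor (pcDNA6TR). Per the labels, single clones were kept in 500 µg/ml G418 and 5 µg/ml blasticidin, so control and induced cultures alike carry both transgenes and saw both antibiotics. The 3 control libraries, titled ETOH, and the 3 MYCN-induced libraries, titled Tet, hold rRNA-depleted total RNA after 120 h, which the labels also give as 5 days of tetracycline. Nothing in the labels says which clone a culture came from, so a difference between clones and the effect of induction cannot be told apart here. No cells without the MYCN construct were given tetracycline among these libraries, so the effects of the drug and of MYCN cannot be told apart either.

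Polyamines (putrescine, spermidine and spermine) are small positively charged molecules that bind nucleic acids and are needed for growth. Ornithine decarboxylase, encoded by ODC1, makes putrescine from ornithine and is the gate of the pathway, AMD1 makes the decarboxylated S-adenosylmethionine that donates aminopropyl groups, and SRM and SMS add these groups to form spermidine and spermine. Antizymes bind ODC and send it to the proteasome, the antizyme inhibitor AZIN1 binds antizymes in its place, and SAT1, SMOX and PAOX turn the longer polyamines back or prepare them for export. ODC1 is a textbook target of the MYC family, which binds the E-box CACGTG, and the ODC inhibitor DFMO (eflornithine) is used against neuroblastoma.

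The sequences that bear on this background are the stretches near ODC1 and SRM that hold E-box letters. ODC1 lies at chr2:10439968-10448327 on the minus strand of GRCh38 and its exon 1 (chr2:10448121-10448327) is untranslated. The first stretch below, chr2:10447997-10448120 on the minus strand, opens at the first base of the intron that follows exon 1 and holds 2 CACGTG, in capitals, which lie 286 and 320 bases downstream of the gene's start with 28 bases between them. Its last 18 bases, with the second CACGTG, are also annotated as untranslated exon of transcripts that begin at chr2:10448014 and below. The second stretch, chr1:11060021-11060268 on the minus strand, is the sequence directly upstream of SRM (chr1:11054584-11060020) and holds 1 CACGTG in capitals, 192 bases from the gene's start. The third, chr2:10448328-10448577 on the minus strand, lies directly upstream of ODC1 and is shown for contrast, since it holds no CACGTG but 2 overlapping variants, CACGCG and CGCGTG, in capitals. All are printed 5′ to 3′ from RefSeq promoter windows of GRCh38.p14.
ODC1 first intron: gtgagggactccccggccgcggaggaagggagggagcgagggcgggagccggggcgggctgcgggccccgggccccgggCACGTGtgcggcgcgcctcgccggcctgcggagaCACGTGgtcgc
SRM upstream: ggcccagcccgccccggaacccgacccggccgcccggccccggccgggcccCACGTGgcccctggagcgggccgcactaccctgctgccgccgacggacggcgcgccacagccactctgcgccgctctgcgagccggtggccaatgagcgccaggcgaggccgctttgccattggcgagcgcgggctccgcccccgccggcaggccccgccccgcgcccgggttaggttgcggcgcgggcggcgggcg
ODC1 upstream: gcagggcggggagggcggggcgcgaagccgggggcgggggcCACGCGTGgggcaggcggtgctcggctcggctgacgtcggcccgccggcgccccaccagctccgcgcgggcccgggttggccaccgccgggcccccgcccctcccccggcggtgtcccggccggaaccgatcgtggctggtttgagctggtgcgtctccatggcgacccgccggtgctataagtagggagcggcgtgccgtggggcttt

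RefSeq promoter windows (250 bases before to 50 after a start, 300 bases in all) were given for 7 of the 10 genes. CACGTG, which reads the same on both strands, was found in the windows of ODC1 and SRM and in none of the windows of the other 5 genes, AMD1, SMS, OAZ1, OAZ2 and SAT1. Of all 35116 windows, 7.26% held at least 1 CACGTG (8.77% of gene symbols had such a window) and 0.664% held 2 or more, as the window at the second ODC1 start did. The variants CACGCG or CGCGTG stood in 11.4% of windows. These are matches of letters, and binding was not measured.

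The transgene and the libraries were checked first. MYCN normalised counts were 30.3, 35.5 and 32.4 CPM (counts scaled to a common library size, with TMM factors between libraries) in control replicates 1, 2 and 3, and 211, 221 and 199 CPM in MYCN-induced replicates 1, 2 and 3. The log2 fold change was 2.68 (SE 0.08, adjusted p = 4.2e-05 in edgeR's quasi-likelihood test). Libraries held 64500589 to 102249336 counted read pairs. MYCN-induced replicate 3 stood apart from the rest on the first principal component (50.5% of the variance), at 40.2. There the 2 remaining induced libraries both lay at 6.3 and the controls between -24.2 and -12.7. Many results are therefore also given from a fit without that library. That fit called more genes in general at an adjusted p under 0.05. It gave 1060 higher and 1279 lower of 28797 tested, against 298 and 692 of 29086 with all libraries. Among adrenergic neuroblastoma markers 9 of 10 passed the filter, with HAND1 not tested, and among mesenchymal markers 8 of 9 passed, with CD44 at 0 in every library. The summed level of the adrenergic list was 928 to 1319 CPM in controls and 938 to 1135 CPM in induced libraries, and that of the mesenchymal list was 510 to 532 CPM against 579 to 653 CPM. Leucocyte and endothelial lists summed to at most 2.30 and 1.43 CPM in any library, and the leucocyte marker CD3E was at 0 in all 6. The 3 epithelial markers summed to 61.7 to 71.3 CPM in controls and 53.6 to 66.5 CPM in induced libraries, nearly all of it from the keratin KRT18, with EPCAM at a mean of 0.37 and 0.41 CPM. All values are shares of a library, the 92 spike-in sequences listed in the files had no counts, and in bulk RNA a change in the number of cells cannot be told apart from a change in RNA per cell.

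The mRNAs of polyamine synthesis were far more abundant than those of breakdown. Levels per exon length were compared as TPM (counts divided by exon length and scaled to the same total in every library) within each group. The length covers all annotated exons of a gene, 10193 bases for AMD1 and 1894 for SRM. The order and range below therefore depend on the annotation. In CPM the control means of AMD1 and SRM were 72.6 and 66.0, the reverse of their order in TPM. In the controls the order by mean was SMS at 249 ± 17.2 TPM (SD, n = 3), ODC1 at 109 ± 5.61, SRM at 57.0 ± 5.47, OAZ1 at 50.5 ± 9.31, AZIN1 at 49.1 ± 2.71, OAZ2 at 14.4 ± 0.59, AMD1 at 11.7 ± 0.86, SAT1 at 4.65 ± 0.17, SMOX at 3.98 ± 0.63 and PAOX at 1.06 ± 0.13 TPM. Thus the spermine synthase mRNA led and the acetylpolyamine oxidase mRNA closed the list, a range of 235 times. PAOX shares 61% of its exon bases with another annotated gene on the same strand, so this range is uncertain. The libraries of SRM and OAZ1 overlapped, as did those of OAZ1 and AZIN1, and every other pair of neighbours in this order was separated in all 3 controls. Summed over the 4 synthesis genes the level was 406 to 444 TPM in controls, against 9.14 to 10.1 TPM summed over the 3 breakdown genes.

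In the MYCN-induced libraries the order was nearly kept. SMS stood at 305 ± 96.3 TPM (SD, n = 3), ODC1 at 161 ± 17.3, SRM at 71.0 ± 5.22, OAZ1 at 70.03 ± 4.59 and AZIN1 at 52.1 ± 6.84 TPM. Below them came OAZ2 at 12.9 ± 3.06, AMD1 at 11.9 ± 3.17, SMOX at 5.28 ± 0.90, SAT1 at 4.55 ± 0.35 and PAOX at 0.85 ± 0.10 TPM. SMOX and SAT1 had changed places, but their induced libraries overlapped, as did those of SRM and OAZ1 and of OAZ2 and AMD1. TPM also depend on short RNAs, since genes with under 400 exon bases took 47.6% to 53.2% of all TPM in a library, so changes between groups below are in CPM.

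**Figure D1:**
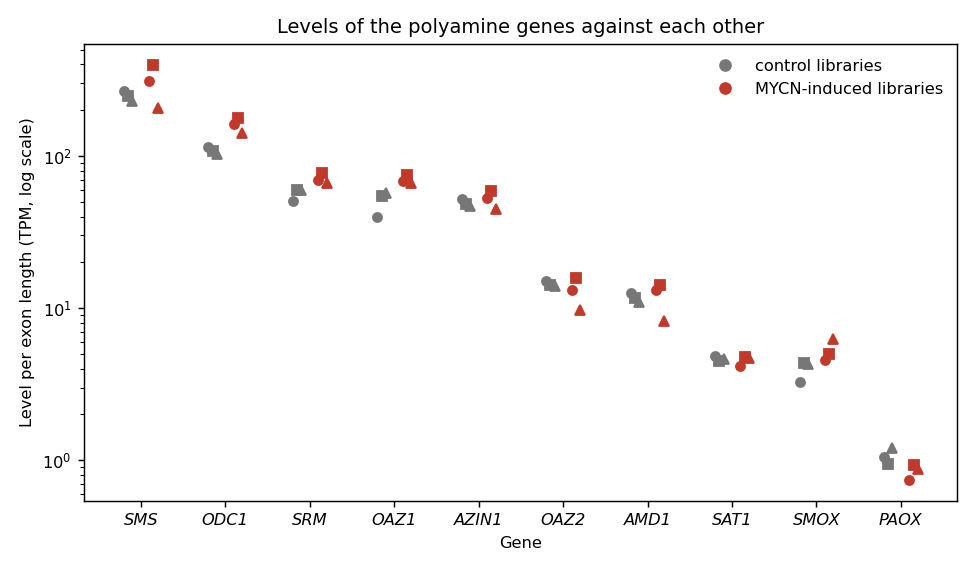
Levels of the 10 polyamine mRNAs per exon length (TPM, log scale), ordered by the control mean, with 1 point per library and the symbols circle, square and triangle for replicates 1, 2 and 3. SMS and ODC1 lead in every library, and PAOX stands at the bottom with 1.06 TPM on average in controls.

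ODC1, the gate of the pathway, rose by about 48% in MYCN-induced cells and was the 1 gene of the 10 that passed the test. Its level was 185.3, 184.9 and 185.1 CPM in control replicates 1, 2 and 3, and 270.1, 269.4 and 280.3 CPM in the induced replicates. All induced libraries thus stood well above all controls, which were almost equal to each other. The log2 fold change was 0.56 (SE 0.06, 95% interval 0.43 to 0.69, adjusted p = 0.0046), a fold of 1.48. By unadjusted p-value it ranked 62 of the 29086 genes tested, of which 1.02% were called higher and 2.38% lower. Without MYCN-induced replicate 3 the value was 0.55 (adjusted p = 0.0023), and without control replicate 2 it was 0.56 with an adjusted p of 0.054, which missed the threshold of 0.05. Over all 12 other settings and left-out libraries the log2 fold change stayed between 0.53 and 0.58, and 11 of them kept the call. On the TPM scale the groups did not overlap either, with 104 to 115 TPM in controls and 143 to 177 TPM in induced libraries.

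The spread of ODC1 between replicates was small. Its coefficient of variation was 0.11% in controls and 2.23% in induced libraries, against medians of 3.69% and 6.72% over the 1446 tested genes with a mean CPM within 2-fold of its own. Among these, 1 gene had a lower value in controls and 158 had a lower one in the induced group. Such closeness of 3 libraries is a description of these samples and was not tested. Counts behind ODC1 were 16392.5 to 25106 read pairs per library. Random sampling of that many reads alone gives a spread above 0.11%. The control value is thus no measure of how little ODC1 varied between cultures.

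Reads of related sequences near or like ODC1 were few. The processed pseudogene ODCP, looked at after its values were seen, held 239 to 359.5 counts per library and 1.72% of the ODC1 counts in controls, with 3.42, 2.696 and 3.38 CPM in controls and 4.04, 3.86 and 3.82 CPM in induced libraries (log2 fold change 0.30, adjusted p = 0.26). ODC1-DT, a noncoding transcript that leaves the ODC1 promoter region in the other direction and was likewise chosen afterwards, had 2.33, 3.0 and 2.66 CPM in controls and 2.47, 2.81 and 2.71 CPM in induced libraries. Its log2 fold change was 0.00 (SE 0.14, 95% interval -0.31 to 0.32, adjusted p = 0.996). Induced and control libraries of ODC1-DT were intermingled where those of ODC1 were apart. The difference between the changes of ODC1 and ODC1-DT was not tested.

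The other synthesis genes did not pass the test. SRM, spermidine synthase, whose upstream sequence holds the CACGTG shown above, had 55.5, 69.9 and 72.8 CPM in control replicates 1, 2 and 3 and 78.1, 79.3 and 89.0 CPM in the induced ones. All induced libraries were higher than all controls, and control replicate 1 was the lowest. Its log2 fold change was 0.31 (SE 0.11, 95% interval 0.06 to 0.57, adjusted p = 0.18), and 0.20 (adjusted p = 0.35) without that control. It was 0.26 (95% interval -0.02 to 0.54, adjusted p = 0.23) without MYCN-induced replicate 3. The pseudogene SRMP2, also chosen afterwards, held 3.39% of the SRM counts in controls.

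SMS, spermine synthase, had 310.9, 309.5 and 299.4 CPM in controls and 375.3, 440.1 and 293.8 CPM in induced replicates 1, 2 and 3. Induced replicates 1 and 2 were above all controls, while replicate 3 was below them. The log2 fold change was 0.27 (SE 0.13, 95% interval -0.04 to 0.58, adjusted p = 0.33) over all libraries and 0.42 (95% interval 0.25 to 0.59, adjusted p = 0.020) without MYCN-induced replicate 3, where SMS was called higher. Without MYCN-induced replicate 2, the highest library, it was 0.13 (adjusted p = 0.61).

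AMD1, S-adenosylmethionine decarboxylase, had 74.3, 72.5 and 71.0 CPM in controls and 79.2, 79.3 and 59.4 CPM in induced libraries, again with replicate 3 lowest of all. Its log2 fold change was 0.00 (SE 0.11, 95% interval -0.26 to 0.26, adjusted p = 0.999), and 0.13 (adjusted p = 0.12) without MYCN-induced replicate 3. The sign of AMD1 depended on the scaling, with -0.03 under library size alone and under upper-quartile scaling. Among the 4 synthesis genes, 1 (ODC1) was called higher, beside 1.02% of all genes tested. Their median log2 fold change was 0.29, beside 0.00 over all genes tested.

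**Figure D2:**
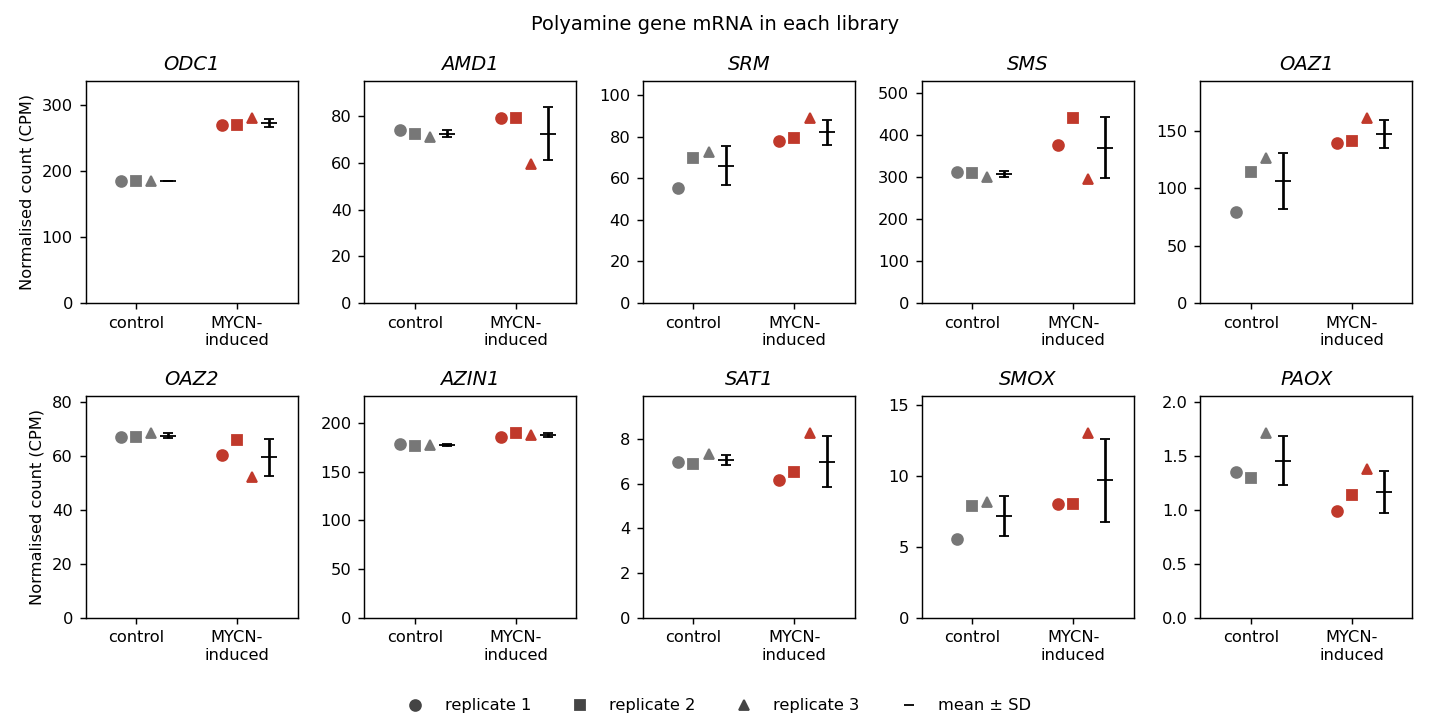
Normalised counts (CPM, axes from 0) of the 10 polyamine genes in 3 control and 3 MYCN-induced libraries, with replicates 1, 2 and 3 as circle, square and triangle and the group mean ± SD beside them. ODC1 controls lie at 185 CPM and its induced libraries at 269 to 280 CPM. MYCN-induced replicate 3 departs from its group in AMD1, SMS, SAT1 and SMOX, and is also the highest induced library in SRM and OAZ1.

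None of the antizyme genes or the inhibitor passed the test. The groups did not overlap in any of the 3, of which OAZ1 and AZIN1 were higher and OAZ2 lower in the induced libraries, and 26.3% of all genes tested did not overlap either. OAZ1, the main antizyme, had 79.3, 114 and 126 CPM in control replicates 1, 2 and 3 and 139, 141 and 161 CPM in the induced ones. Control replicate 1 lay far below the other controls, and its distance from them was about as large as the distance between the groups. The log2 fold change was 0.47 (SE 0.16, 95% interval 0.09 to 0.84, adjusted p = 0.17). Leaving out 1 library at a time, it ran from 0.29 to 0.60 without passing the threshold. Of its exon bases 6.87% are shared with the antisense gene JSRP1 and 6.4% with another annotated gene on the same strand, and counts of such overlaps are uncertain.

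OAZ2, a second antizyme, had 66.9, 66.9 and 68.5 CPM in controls and 60.1, 66.0 and 52.3 CPM in induced libraries. All induced values were below the controls, replicate 2 by less than 1 CPM. Its log2 fold change was -0.18 (SE 0.09, 95% interval -0.39 to 0.03, adjusted p = 0.34), and -0.09 without MYCN-induced replicate 3. AZIN1, the antizyme inhibitor, had 178.4, 176.3 and 177.2 CPM in controls and 185.3, 189.7 and 187.9 CPM in induced libraries. These groups were apart, but by a small step, with a log2 fold change of 0.08 (SE 0.06, 95% interval -0.05 to 0.21, adjusted p = 0.49). The bounds correspond to folds of 0.97 to 1.16, so a change of AZIN1 as large as the lower bound of ODC1, a fold of 1.35, lay outside its interval.

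The breakdown genes were low and did not pass the test. SAT1, which acetylates spermidine and spermine, had 6.98, 6.90 and 7.34 CPM in controls and 6.16, 6.54 and 8.28 CPM in induced libraries, where replicates 1 and 2 were below and replicate 3 above every control. Its log2 fold change was -0.02 (SE 0.13, 95% interval -0.32 to 0.29, adjusted p = 0.97), and -0.15 (SE 0.09, adjusted p = 0.35) without replicate 3. SMOX, spermine oxidase, had 5.54, 7.87 and 8.13 CPM in controls and 7.98, 8.03 and 13.0 CPM in induced libraries. Its groups overlapped, induced replicate 3 alone stood high and control replicate 1 alone stood low. The log2 fold change was 0.43 (SE 0.23, 95% interval -0.10 to 0.96, adjusted p = 0.37). It was 0.16 without that induced library and 0.27 without that control (adjusted p = 0.62 and 0.66). PAOX, which oxidises acetylated polyamines, had 1.36, 1.30 and 1.72 CPM in controls and 0.99, 1.14 and 1.38 CPM in induced libraries. The log2 fold change of PAOX was -0.31 (SE 0.18, 95% interval -0.74 to 0.11, adjusted p = 0.41). It was -0.44 (95% interval -0.87 to -0.02, adjusted p = 0.18) without MYCN-induced replicate 3. Of the PAOX exon bases 61% are shared with another annotated gene on the same strand, so its counts are uncertain.

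Counted over the 10 genes, 1 was called higher and 0 lower in edgeR, beside 1.02% and 2.38% of all genes tested. An unadjusted p under 0.05 was found for 3 (ODC1, SRM and OAZ1), beside 18.7% of all genes tested, and 7 had a log2 fold change above 0. DESeq2 likewise called 1 higher and 0 lower. The median log2 fold change was 0.18, beside 0.00 over all genes tested, of which 49.9% lay above 0. The groups did not overlap in 5 of the 10 (4 higher, 1 lower), beside 26.3% of all genes tested.

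**Figure D3:**
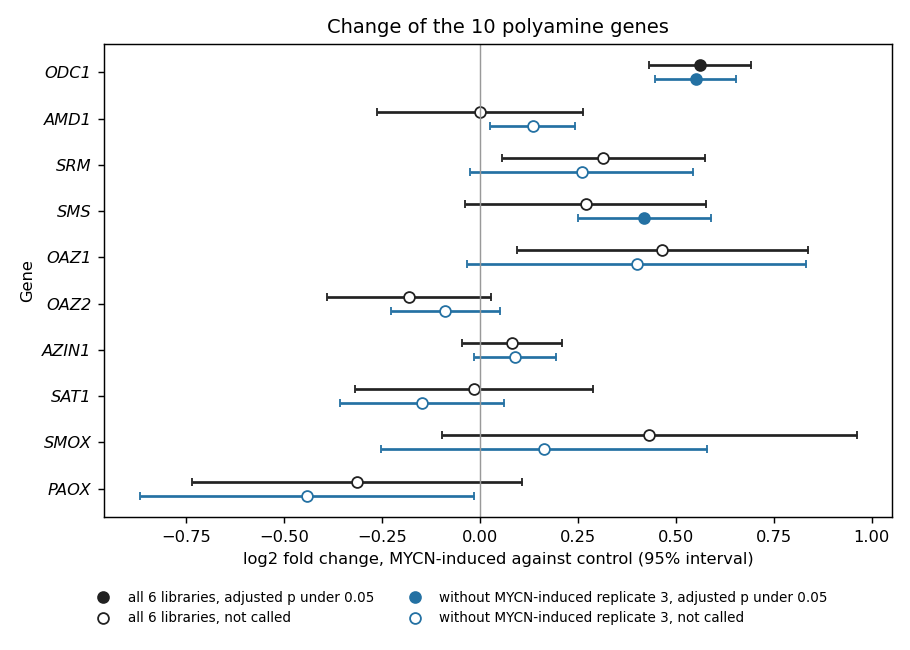
log2 fold change of each polyamine gene, MYCN-induced against control, with its 95% interval, from all 6 libraries (black) and without MYCN-induced replicate 3 (blue), where filled points mark an adjusted p under 0.05. ODC1 is called in both, at 0.56 and 0.55, and SMS is called only without that library, at 0.42.

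Within a library, ratios of mRNA levels describe how members stood to each other, without a test. The size of each ratio also depends on the annotated exon lengths, which are the same in every library. The ratio of ODC1 to AZIN1 in TPM was 2.21, 2.23 and 2.22 in controls and 3.10, 3.02 and 3.17 in induced libraries, without overlap. ODC1 to SAT1 was 22.6 to 24.0 in controls and 30.3 to 39.2 in induced libraries, and ODC1 to AMD1 was 9.11 to 9.52 against 12.4 to 17.2. In contrast, ODC1 to OAZ1, the mRNA of the enzyme against that of its main antizyme, was 2.88, 1.99 and 1.81 in control replicates 1, 2 and 3 and 2.39, 2.35 and 2.14 in induced ones, so these groups overlapped. SMS to SRM overlapped as well (3.85 to 5.24 against 3.09 to 5.19). Ratios without ODC1 could also separate the groups, as OAZ1 to OAZ2 did (2.65 to 4.11 in controls against 4.77 to 6.89) and SMOX to PAOX (3.12 to 4.65 against 5.403 to 7.203).

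The genes whose pattern over the 6 libraries was most like that of ODC1 were DKC1, MTIF2, LSG1, EIF5 and ZC3H8, with Pearson's r of 0.9995, 0.998, 0.996, 0.995 and 0.995 on log2(CPM + 1), out of 10157 other genes with a mean of at least 10 CPM. DKC1 encodes the pseudouridine synthase dyskerin, MTIF2 a mitochondrial translation initiation factor, LSG1 a GTPase of 60S ribosome assembly and EIF5 a translation initiation factor. DKC1 had 127 to 128 CPM in controls and 161 to 166 CPM in induced libraries (log2 fold change 0.35, adjusted p = 0.021), and EIF5 had 268 to 277 against 370 to 373 CPM (0.45, adjusted p = 0.0088). LSG1 was also called higher (0.33, adjusted p = 0.027). MTIF2 and ZC3H8 did not pass (0.21 and 0.19, adjusted p = 0.10 and 0.17). MTIF2 was called higher in DESeq2 (0.034) and in edgeR without MYCN-induced replicate 3 (0.042). With 6 libraries in 2 groups such coefficients mostly reflect the step between the groups, and 628 genes had r above 0.9. DKC1, MTIF2, LSG1, EIF5 and ZC3H8 were chosen by their likeness to ODC1 in these same libraries, so calls among them are no separate result. Of all genes tested 1.02% were called higher. Without control replicate 2 the adjusted p was 0.17 for DKC1, 0.20 for LSG1 and 0.096 for EIF5. DKC1 and LSG1 also missed the threshold without control replicate 1 (0.088 and 0.097), control replicate 3 (0.11 and 0.12) or induced replicate 1 (0.069 and 0.082), LSG1 without induced replicate 2 (0.057) and EIF5 without control replicate 3 (0.066). Under library-size and upper-quartile scaling DKC1 (0.054 and 0.051) and LSG1 (0.067 and 0.062) missed it too.

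Around the core pathway, 36 further genes were listed by role, of which 30 were tested. Among them 3 were called higher and 0 lower (1.02% and 2.38% of all genes tested), 9 had an unadjusted p under 0.05 (18.7% of all), and the median log2 fold change was 0.26. The 3 called genes all belong to the supply of precursors, where 10 of 11 genes were tested. SLC7A1, the main carrier of arginine and ornithine into cells, had 83.2, 88.3 and 86.1 CPM in controls and 198, 147 and 356 CPM in induced replicates 1, 2 and 3. Replicate 3 stood far above the others, and the log2 fold change was 1.44 (SE 0.28, adjusted p = 0.039), or 1.01 (adjusted p = 0.0063) without it. SLC7A2, another carrier of cationic amino acids, had 56.7, 52.6 and 48.9 CPM in controls and 75.4, 76.4 and 75.8 CPM in induced libraries (log2 fold change 0.53, SE 0.07, adjusted p = 0.013). ALDH18A1, which makes the proline and ornithine precursor from glutamate, had 71.0, 71.4 and 69.9 CPM against 98.2, 102 and 86.0 CPM (0.43, SE 0.08, adjusted p = 0.030). The adjusted p of SLC7A1 was 0.15, 0.17 and 0.15 without control replicate 1, 2 or 3 and 0.094 without induced replicate 1, and 0.054 with at least 100 counts in every library. That of SLC7A2 was 0.11 without control replicate 2 and 0.072 without control replicate 3. ALDH18A1 lost its call without any 1 library except induced replicate 3 (0.069 to 0.17), and under library-size and upper-quartile scaling (0.086 and 0.055).

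The remaining lists held no called gene in edgeR with all libraries. In methylthioadenosine salvage, which recycles the by-product of spermidine and spermine synthesis, all 5 genes were tested, with a median log2 fold change of 0.25. ADI1, the dioxygenase of this route, had 9.61, 9.80 and 10.3 CPM in controls and 15.4, 12.9 and 12.1 CPM in induced libraries (0.45, adjusted p = 0.081), and APIP, its dehydratase, had 18.2 to 18.8 against 17.1 to 28.2 CPM (0.28, adjusted p = 0.43). Without MYCN-induced replicate 3 both were called higher, at 0.52 and 0.45 (adjusted p = 0.027 and 0.048). Without MYCN-induced replicate 2, in which APIP was highest, APIP was at 0.08 (adjusted p = 0.81). DESeq2 also called ADI1 higher (adjusted p = 0.0089).

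Of the 11 polyamine transport genes 6 were tested. SLC3A2, the heavy chain of amino acid exchangers that also takes part in polyamine export, had 40.0, 42.1 and 42.4 CPM in controls and 72.8, 57.6 and 142 CPM in induced libraries (log2 fold change 1.13, adjusted p = 0.088). SLC12A8 had 7.62, 6.89 and 5.99 CPM against 9.77, 9.68 and 19.0 CPM (0.91, adjusted p = 0.12). Both were highest in MYCN-induced replicate 3 and were called higher without it, at 0.66 and 0.52 (adjusted p = 0.014 and 0.037). DESeq2 called both higher with all libraries (adjusted p = 0.0026 and 0.012), and SLC3A2 also passed with no count filter (0.026).

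In the hypusine pathway, which uses spermidine to modify the translation factor eIF5A, all 4 genes were tested. DOHH, the hydroxylase of the last step, had 2.88, 7.77 and 9.02 CPM in controls and 6.77, 11.7 and 10.4 CPM in induced libraries (0.55, adjusted p = 0.51). Without control replicate 1, its lowest library, DOHH was at 0.19, and without control replicate 3 at 0.85 (adjusted p = 0.77 and 0.40). EIF5A2, a second form of the factor, had 6.41 to 6.61 against 7.04 to 8.63 CPM (0.29, adjusted p = 0.21). Among 5 other homologues and oxidases, the testis antizyme OAZ3 was at 0.27 (adjusted p = 0.32) and SATL1 at 0.11 (adjusted p = 0.78), the sign of SATL1 turning to -0.05 without MYCN-induced replicate 3.

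**Figure D4:**
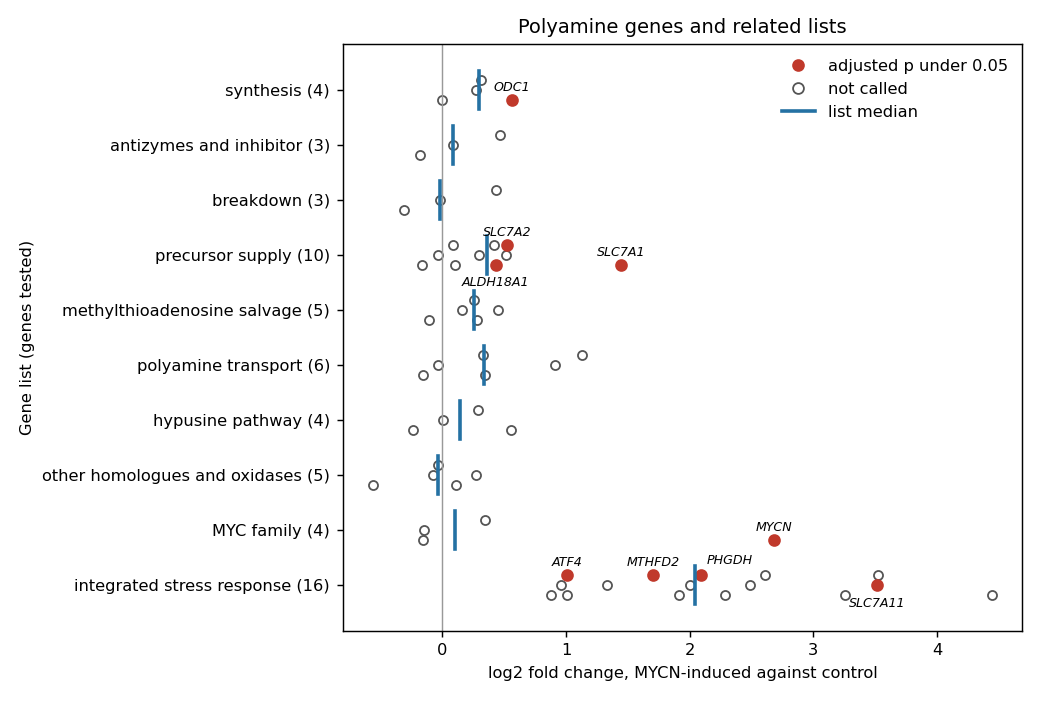
log2 fold change, MYCN-induced against control, of each tested gene in the polyamine groups and the related lists, with filled points for an adjusted p under 0.05 and a bar at each list's median. The 3 polyamine groups lie between -0.31 and 0.56, and the integrated stress response list lies between 0.88 and 4.44.

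Other members of the MYC network and a stress programme were read in the same libraries. MYC had 48.8, 53.4 and 56.2 CPM in controls and 37.6, 37.5 and 66.9 CPM in induced replicates 1, 2 and 3, so that replicate 3 was above and the others below every control (log2 fold change -0.16, adjusted p = 0.76). Without MYCN-induced replicate 3 it was called lower, at -0.48 (adjusted p = 0.016). MAX, the partner of MYC proteins, had 52.5 to 54.8 against 62.8 to 77.8 CPM (0.34, adjusted p = 0.10), or 0.24 (adjusted p = 0.037) without that library, and MYCL had 5.73 to 5.83 against 5.17 to 5.25 CPM (-0.15, adjusted p = 0.47). DESeq2 called MAX higher with all libraries (adjusted p = 0.048).

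The integrated stress response list, genes that ATF4 turns on when amino acids run short or the ER is stressed, moved with the library that stood apart. Its 18 genes summed to 357, 362 and 380 CPM in control replicates 1, 2 and 3 and to 816, 609 and 2015 CPM in induced replicates 1, 2 and 3. PSAT1 and FGF21 were below the filter and not tested. PSAT1 had 22, 8 and 3 counts in control replicates 1, 2 and 3 and 3, 2 and 3 in the induced ones. FGF21 had 1 count in each control and 6, 4.5 and 328.5 in induced replicates 1, 2 and 3. All 16 tested genes had a log2 fold change above 0, with a median of 2.04, and 4 were called higher, where 49.9% of all genes tested lay above 0 and 1.02% were called higher. These were ATF4 itself (189 to 204 against 300 to 547 CPM, log2 fold change 1.005, adjusted p = 0.047), PHGDH of serine synthesis (24.6 to 25.3 against 45.0 to 188 CPM, 2.09, adjusted p = 0.048), the cystine carrier SLC7A11 (14.9 to 16.8 against 46.3 to 414 CPM, 3.52, adjusted p = 0.049) and MTHFD2 of folate metabolism (58.6 to 62.5 against 118 to 302 CPM, 1.70, adjusted p = 0.028). CHAC1 (1.88 to 2.47 against 4.16 to 58.4 CPM) and NUPR1 (0.11 to 0.20 against 0.34 to 8.56 CPM) had adjusted p of 0.079 and 0.10. DESeq2 called both higher with all libraries (adjusted p = 0.011 and 0.0090), and both passed with no count filter (0.020 and 0.033). CHAC1 also passed under upper-quartile scaling (0.048). Without MYCN-induced replicate 3 all 6 passed, at 0.68, 1.40, 2.07, 1.26, 1.81 and 1.94 for ATF4, PHGDH, SLC7A11, MTHFD2, CHAC1 and NUPR1. In that fit 1060 of all 28797 genes tested were called higher. Without control replicate 1, 2 or 3 or induced replicate 1, none of the 4 called genes passed (adjusted p = 0.079 to 0.22), and CHAC1 passed without induced replicate 2 (0.041). With at least 100 counts in every library ATF4, PHGDH and SLC7A11 also missed the threshold (0.065, 0.067 and 0.069). SLC7A1, SLC3A2 and SLC12A8 were highest and AMD1 was lowest in the library in which this list was highest, MYCN-induced replicate 3, and the part of the stress programme in the values of these genes was not tested. ODC1 was also highest there, at 280.3 CPM against 270.1 and 269.4 CPM in induced replicates 1 and 2, and its log2 fold change was 0.56 with that library and 0.55 without it.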

How the data were processed

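Total RNA depleted of rRNA came from 3 control and 3 MYCN-induced SK-N-AS cultures, grouped by the sample titles. The authors deposited estimated counts, read pairs per gene over exons. Per the file headers, the authors ran featureCounts 1.6.4 on unique STAR alignments, divided a pair that met several genes evenly among them, and gave no option for strand. The submitters' processing notes name STAR 2.7.1a and featureCounts 1.5.1 on GRCh38, and the methods list a strand option, so counts of genes overlapping on opposite strands are uncertain. Besides OAZ1 and PAOX, other named genes share exon bases with genes on either strand. Among them are OAZ2 (7.22%), MTHFD2 (14.1%), MAX (16.1%), NUPR1 (16.5%) and OAZ3 (27.6%), and their counts are uncertain in the same way. Of values above 0, 31.9% to 33.4% were not whole. Names came from GENCODE 44 on GRCh38 (99.65% of identifiers matched).

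Counts were rounded. The 29086 genes that reached 10 counts in 3 or more libraries entered edgeR 4.0.16 (R 4.3.3), where TMM factors were applied and the quasi-likelihood test was run with no block. Benjamini-Hochberg adjustment covered every tested gene, and the threshold was 0.05. The standard error is the log2 fold change divided by the square root of F. TPM were made here from the counts and the exon lengths the authors deposited. The test was checked on simulated counts. Depth was 64500589 to 102249336 pairs, so the spread between cultures set the precision (biological coefficient of variation 0.153), and replicates of a group all differed beyond sampling noise.

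The 10 genes, the lists and the alternatives were chosen with earlier results of these data known, and the lists were written from general knowledge. Besides the 10 genes, the text names the MYC family, in each related list every gene past the threshold and the 2 with the largest change among those at a mean of at least 1 CPM, and the 5 genes most correlated with ODC1, and says where others were added. The alternatives were library-size and upper-quartile scaling, DESeq2 1.42.0, a filter of 100 counts in each library or none at all, a replicate block, each library left out, and thresholds of 0.01 and 0.1. The labels do not say whether cultures came from separate experiments, which the methods state, and p-values measure the spread between these 6 libraries.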

Additional observations from a re-analysis of the deposited data

How the results depend on the processing

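ODC1 kept its direction under all 12 alternatives and its call under 11, being lost without control replicate 2. The number of polyamine genes called higher was 0 to 2 when 1 library was left out and 1 under every other alternative, and 0 were called lower under each. AMD1 turned to -0.025 (library size only), -0.0275 (upper quartile), -0.014 (at least 100 counts) and -0.012 (replicate block), and ran from -0.068 to 0.13 on leaving out libraries. SAT1 was at 0.0014 in DESeq2 and ran from -0.15 to 0.0737 on leaving out libraries. SATL1 ran likewise from -0.0458 to 0.23. PAOX was not tested at 100 counts in every library. Over all genes, 298 were called higher and 692 lower, against 904 and 1199 in DESeq2, 470 higher with no count filter, 404 lower with at least 100 counts in every library (fewer genes tested), 36 and 145 at a threshold of 0.01, and 706 and 1242 at 0.1. Leaving out 1 library gave 18 to 1060 higher and 72 to 1279 lower, the lowest without control replicate 2 and the highest without MYCN-induced replicate 3. Without any other library the counts also fell by over 1.5 times.

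Deviations of same-numbered libraries correlated at 0.31, 0.02 and 0.09, and control replicate 2 correlated best with induced replicate 3 (0.06), so the numbers were not taken to pair the samples. With the replicate block 265 genes were called higher and 575 lower, ODC1 was at 0.56 (adjusted p = 0.015), SLC7A11, DKC1 and LSG1 missed the threshold (0.055, 0.055 and 0.063) and NUPR1 passed it (0.037).

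Depth did not limit the abundant synthesis genes. PAOX, at 64.2 to 175 counts per library, and the 5 transport genes below the filter were measured with little precision. Polyamines, proteins and translation of the antizyme mRNAs were not measured here.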
